A study of Mus musculus with 21 samples.

Results

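Brain endothelial cells of mice with an allele made to yield stabilised beta-catenin were compared with those of control mice, in animals without stroke. The comparison uses 5 of the 21 RNA-sequencing libraries of the series, all 5 that the labels describe as normal condition with a Ctnnb1 genotype. Bcat_exon3 (n = 3) came from mice with 1 loxP-flanked exon 3 allele and 1 intact allele of Ctnnb1 and the Cdh5-CreER transgene (Ctnnb1 lox(ex3)/+; Cdh5-CreER+). Bcat_control (n = 2) came from mice with 2 intact alleles and the same transgene (Ctnnb1 +/+; Cdh5-CreER+). Per the labels all 5 libraries came from male C57BL/6 mice aged 12 to 20 weeks. The cells had been sorted from digested brain for CD31, which marks endothelium, and against CD45 and PDGFRb, which mark leukocytes and pericytes. Genes were kept where the mean over the 5 libraries was at least 1 RPKM (a read number per gene divided by gene length and by library size, as the authors deposited it), which 11256 of 24206 gene names met. The gene nearest below this limit was Pdzrn3 with a mean of 0.9988 RPKM and the nearest above it was Spint2 with 1.00255.

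Beta-catenin is a component of adherens junctions and the transcriptional partner of TCF/LEF factors in Wnt signalling. Without a Wnt signal a destruction complex of Apc, Axin proteins, casein kinase and Gsk3 phosphorylates its amino-terminal part and so marks it for breakdown. In brain vessels Wnt7 proteins and Norrin, read by frizzled receptors with Lrp5 or Lrp6, Gpr124, Reck and Tspan12, use this pathway to induce and keep the blood-brain barrier, and the pathway switches on several of its own inhibitors. The Cdh5 promoter drives the inducible recombinase in endothelial cells. Excision of exon 3 leaves a protein that lacks the phosphorylated sites and is no longer marked for breakdown. The labels name no dose or time of induction and no share of cells with excision. One allele stayed intact, and both groups carry the recombinase. The labels do not say whether the libraries came from separate animals or from pools, and the p-values therefore cover only the spread among these 5 libraries.

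Exon 3 is shown because it is the exon flanked by loxP sites in the Bcat_exon3 group. In GRCm38 it lies at chr9:120950522-120950749 on the plus strand, inside Ctnnb1 (chromosome 9, 120929216 to 120960507), and is entirely coding in the GENCODE transcript of 15 exons. It holds 228 bases, 76 codons' length, so its loss keeps the reading frame of the 2343-base coding sequence and touches codons 5 to 81. The capitals mark codons 33, 37, 41 and 45, which encode the phosphorylated serines and threonine.
Ctnnb1 exon 3: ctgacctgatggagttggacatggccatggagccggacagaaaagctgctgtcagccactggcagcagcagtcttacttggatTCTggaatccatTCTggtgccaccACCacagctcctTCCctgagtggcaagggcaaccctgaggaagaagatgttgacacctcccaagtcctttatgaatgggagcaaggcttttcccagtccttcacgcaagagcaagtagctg

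Depth differed between the groups. Steps among the low RPKM values gave 11.6, 12.3 and 15.0 M reads in Bcat_exon3 and 6.63 and 7.36 M in Bcat_control. By this estimate, 1 read in a gene of 1 kb was worth 0.0666 to 0.0859 RPKM in Bcat_exon3 and 0.136 to 0.151 in Bcat_control. Depth and genotype cannot be told apart in any result below. Between 12967 and 14082 genes were above 0 in Bcat_exon3, and 13483 and 13113 in Bcat_control. Across the tested genes, which are not independent replicates, the log2 values of Bcat_exon3 libraries correlated with r of 0.806 to 0.824, those of the controls with 0.871, and pairs across the groups with 0.826 to 0.848. Bcat_exon3 libraries were thus no closer to each other than to the controls, and a principal component that separated the groups was the third, with 24.4% of the variance. Pan-endothelial markers were high in every library: summed RPKM over 17 markers such as Pecam1, Cdh5 and Cldn5 was 4349 to 5292 in Bcat_exon3 and 5436 to 5485 in Bcat_control.

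No gene passed an adjusted p of 0.05 in limma (0.0% of 11256), and none did under any of 16 alternative settings. At an unadjusted p under 0.05 there were 250 genes higher in Bcat_exon3 (2.22%) and 340 lower (3.02%), together 590 (5.24%). With median-of-ratios scaling the split was 303 higher and 275 lower. This share was 3.42% without Bcat_control 1 and 2.89% without Bcat_control 2. In 975 genes all 3 Bcat_exon3 libraries lay above both controls (8.66% of genes tested), and in 1321 all 3 lay below (11.7%), together 20.4%. These shares are the background for the counts of separated members given below, where "separated" means that the groups did not overlap. The lists were chosen with earlier results of these data known, so the list counts give no independent support. A gene low in 1 group could reach the filter through the other group alone, as Ackr1, Dkk2, Lcn2 and Mmp14 did through Bcat_exon3. The median log2 fold change over all tested genes was -0.06. On simulated data for the same comparison the fit recovered 72 of 100 genes given a log2 change of 2. It recovered 100 of 100 given a log2 change of 4. Both steps were in 1 simulated run of 11256 genes, in which 10 unchanged genes were called. The simulated noise followed the typical spread at each level and had no floor at 0, so these recovery shares do not carry over to single genes here. Lcn2, for example, had a log2 fold change of 4.36 in the real data at a limma adjusted p of 0.649. All values below are therefore descriptions of these 5 libraries, with log2 fold changes on the log2(RPKM + 1) scale, ± SE of the fit, which understate differences of low genes.

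**Figure D1:**
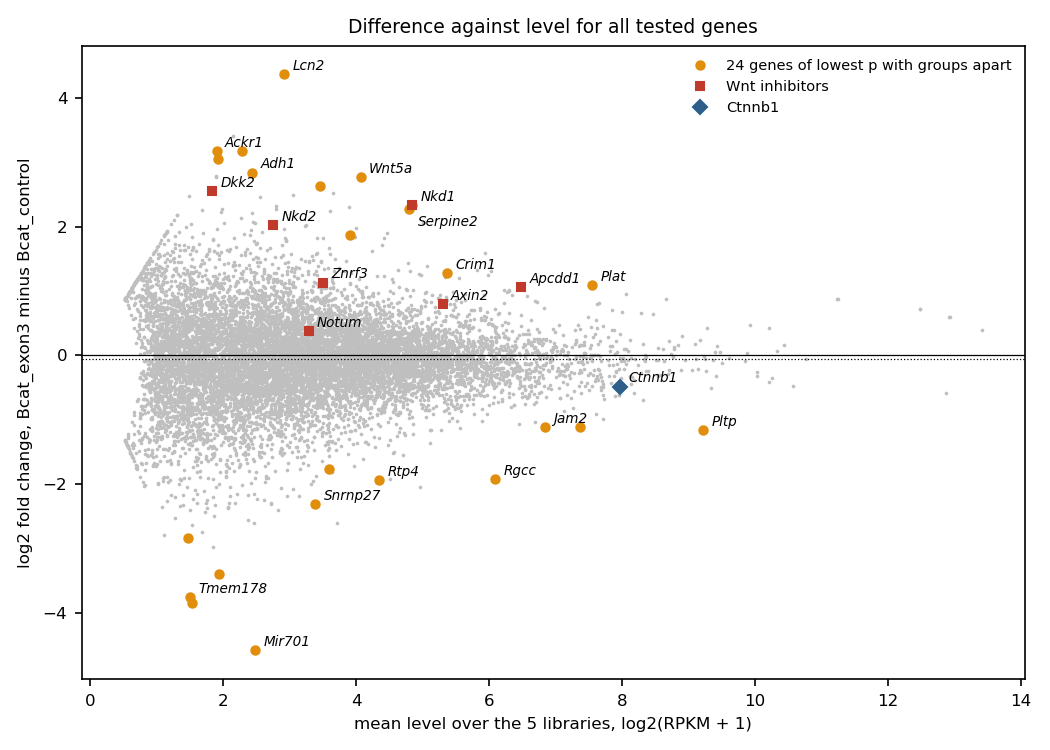
Log2 fold change, Bcat_exon3 minus Bcat_control, against the mean log2(RPKM + 1) over the 5 libraries, 1 grey point per tested gene (11256). The 24 named genes of lowest p whose groups did not overlap (orange), 7 Wnt inhibitors (red squares) and Ctnnb1 (blue diamond) are marked; the dotted line is the median of all genes at -0.06, and no gene passed the adjusted threshold.

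The gene-level amount of Ctnnb1 RNA was lower with the floxed allele. It measured 244, 250 and 169 RPKM in Bcat_exon3 and 300 and 310 RPKM in Bcat_control. All 3 Bcat_exon3 libraries lay below both controls, and Bcat_exon3 3 was the lowest. The log2 fold change was -0.48 ± 0.24 (limma adjusted p = 0.957), and -0.30 without that library. A gene-level value sums reads of both alleles and all exons and so does not show whether exon 3 was present.

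Inhibitors that the Wnt pathway induces against itself were the members of the Wnt-target list with the clearest separation. Of 25 listed targets 19 were tested, and 6 of these were separated with higher values in Bcat_exon3 (31.6%, against 8.66% of all genes) and 2 with lower values (10.5%, against 11.7%). All 6 higher ones, Axin2, Nkd1, Nkd2, Apcdd1, Znrf3 and Dkk2, are among the 7 tested inhibitors, and their unadjusted p was under 0.05. The median log2 fold change was 0.33 over the 19 members, 1.13 over the 7 inhibitors and -0.08 over the other 12 (all genes -0.06). Without Bcat_control 1 the median of all 19 was 0.0044, while that of the inhibitors stayed between 0.99 and 1.58 over the 16 alternatives. The list was chosen with earlier results of these data known, and its split by role was made with its values in view. Its shares beside those of all genes are therefore descriptions only.

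Axin2 encodes a scaffold of the destruction complex and is the most widely used readout of the pathway. It measured 46.5, 54.5 and 44.2 RPKM in Bcat_exon3 and 28.3 and 26.3 RPKM in Bcat_control. Each of the 3 libraries exceeded both controls, and values within a group lay close together. The log2 fold change was 0.80 ± 0.26 (limma adjusted p = 0.900), and it ranged from 0.71 to 0.87 over the 16 alternatives.

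Nkd1 and Nkd2 encode naked cuticle proteins, which bind Dishevelled and damp the signal inside the cell. Nkd1 (chromosome 8, 88521354 to 88594884, plus strand) measured 85.9, 71.9 and 24.9 RPKM against 8.47 and 11.5 RPKM in the controls. Bcat_exon3 3 was the lowest of its group and still lay above both controls. The log2 fold change was 2.33 ± 0.50 (limma adjusted p = 0.610). Nkd2 measured 6.55, 12.5 and 15.3 RPKM against 2.96 and 1.14 RPKM (2.02 ± 0.56), so here Bcat_exon3 1 was the lowest and Bcat_exon3 3 the highest of its group.

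The 3 inhibitors that act at the cell surface or outside the cell and were separated did so at very different levels. Apcdd1, a membrane protein that blocks Wnt receptors and is abundant in brain endothelium, measured 106, 161 and 98.2 RPKM in Bcat_exon3 and 53.6 and 59.3 RPKM in Bcat_control (log2 fold change 1.06 ± 0.27, limma adjusted p = 0.769). Znrf3, a ubiquitin ligase that clears frizzled receptors, measured 14.6, 13.9 and 15.0 RPKM against 3.70 and 9.69 RPKM (1.13 ± 0.45). The Znrf3 difference depended on which control was kept, at 0.54 without Bcat_control 1 and 1.72 without Bcat_control 2.
Dkk2, a secreted Lrp5/6 antagonist, measured 4.73, 4.56 and 11.0 RPKM against 0.530 and 0 RPKM. It was close to the level of a few reads in both controls. Notum, a secreted enzyme that inactivates Wnt proteins, was the tested inhibitor whose groups overlapped, with 15.0, 12.5 and 4.88 RPKM against 4.19 and 12.4 RPKM (0.38 ± 0.60).

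**Figure D2:**
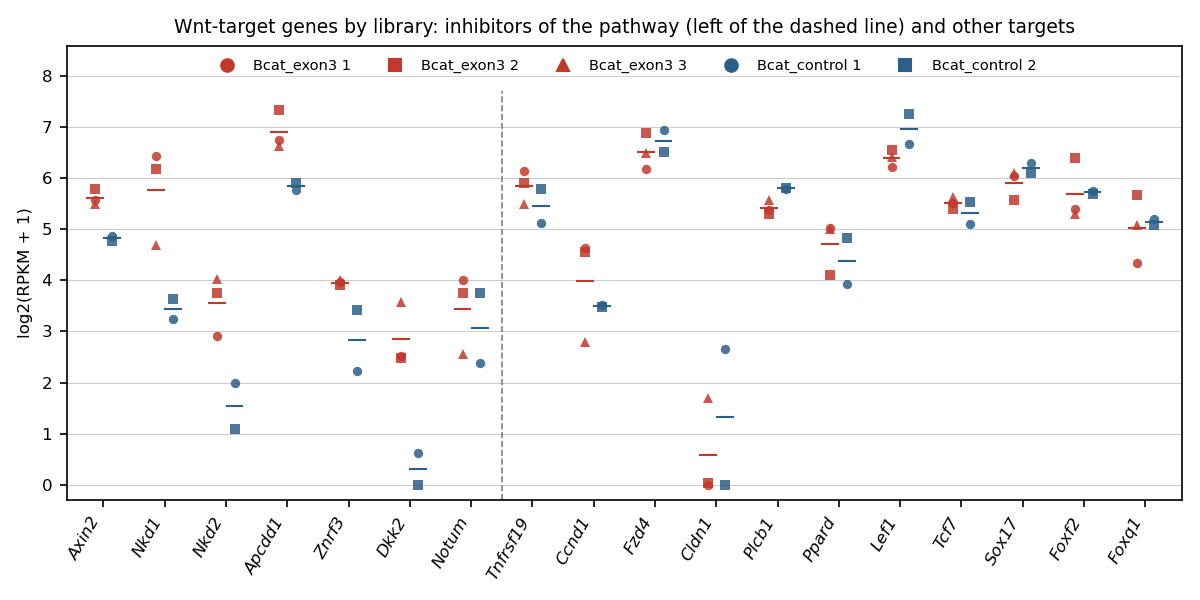
Log2(RPKM + 1) of 18 of the 19 tested Wnt-target genes in each of the 5 libraries (red: Bcat_exon3, n = 3; blue: Bcat_control, n = 2; symbols are replicates, lines group means), with inhibitors of the pathway left of the dashed line. All 3 Bcat_exon3 libraries lie above both controls for 6 of the 7 inhibitors and for none of the 11 other members shown.

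The remaining targets did not share that separation. Lef1, a TCF/LEF factor that is itself a target, measured 73.8, 93.2 and 84.7 RPKM in Bcat_exon3 and 100 and 152 RPKM in Bcat_control, so that all 3 lay below both controls (log2 fold change -0.56 ± 0.26). This difference was -0.86 without Bcat_control 1 and -0.26 without Bcat_control 2. Tcf7, another factor of that family, overlapped at 44.9, 40.9 and 48.3 RPKM against 33.4 and 45.5 RPKM. Plcb1, a phospholipase, was the other separated lower member, with 40.9, 38.5 and 46.8 RPKM against 54.4 and 55.3 RPKM. The cell-cycle gene Ccnd1 was high in Bcat_exon3 1 and 2 (23.8 and 22.7 RPKM) and low in Bcat_exon3 3 (5.92 RPKM), on both sides of the controls at 10.4 and 10.2 RPKM. Tnfrsf19, a receptor induced by the pathway, overlapped at 70.0, 59.2 and 43.9 RPKM against 34.1 and 54.5 RPKM.

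Transcription factors of the barrier programme overlapped between the groups. Sox17 was at 64.8, 46.9 and 68.0 RPKM against 78.0 and 67.6 RPKM (log2 fold change -0.29 ± 0.26, and -0.13 without Bcat_exon3 2). Foxf2 was at 41.1, 83.4 and 38.2 RPKM against 53.0 and 50.9 RPKM, and Foxq1 at 19.3, 50.1 and 32.8 RPKM against 35.9 and 33.0 RPKM. Both forkhead genes were highest in Bcat_exon3 2 and overlapped. Ppard, a nuclear receptor, overlapped as well (0.33 ± 0.41). The signs for Foxf2, Foxq1 and Ppard changed with the setting or the library left out. Sp5, Rnf43 and Cldn3 were listed at 0 in all 5 libraries, and Lgr5, Myc and Wisp1 did not reach the filter.

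Windows before the RefSeq starts of 3 targets are shown because these genes were separated in opposite directions. The TCF/LEF core CTTTGA was searched on both strands in 250 bases before to 50 bases after each RefSeq gene start (GRCm38.p6), where 16.0% of 32851 windows and 18.2% of 27025 genes hold it. Of the 25 listed targets 15 had a window and 4 of these held the core (26.7%), namely Lef1, Tnfrsf19, Ppard and Sp5. No copy of these letters lay in the windows of Axin2, Nkd1, Nkd2 and Dkk2. Apcdd1 and Znrf3 had no matching entry. The capitals mark the core, here as TCAAAG on the plus strand, 180 and 120 bases before 1 of the 4 Lef1 starts. That start lies inside the GENCODE span of Lef1 (chromosome 3, 131110471 to 131224356, plus strand), and the windows of the other 3 Lef1 starts hold no copy. The Nkd1 window likewise lies inside the GENCODE span of its gene, and sequence before the start of that span was not searched.
Lef1, before an internal start, chr3:131156044-131156293, plus strand: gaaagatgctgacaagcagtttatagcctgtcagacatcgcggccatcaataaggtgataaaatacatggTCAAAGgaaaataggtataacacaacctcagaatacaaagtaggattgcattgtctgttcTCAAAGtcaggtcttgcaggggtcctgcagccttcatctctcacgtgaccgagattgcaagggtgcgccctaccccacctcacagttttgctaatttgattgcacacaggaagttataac
Axin2, before its start, chr11:108920099-108920348, plus strand: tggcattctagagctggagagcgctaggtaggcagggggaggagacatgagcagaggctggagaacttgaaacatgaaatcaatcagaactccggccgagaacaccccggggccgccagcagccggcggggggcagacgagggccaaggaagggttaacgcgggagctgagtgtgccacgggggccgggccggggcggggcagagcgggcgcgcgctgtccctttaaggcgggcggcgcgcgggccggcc
Nkd1, before an internal start, chr8:88527383-88527632, plus strand: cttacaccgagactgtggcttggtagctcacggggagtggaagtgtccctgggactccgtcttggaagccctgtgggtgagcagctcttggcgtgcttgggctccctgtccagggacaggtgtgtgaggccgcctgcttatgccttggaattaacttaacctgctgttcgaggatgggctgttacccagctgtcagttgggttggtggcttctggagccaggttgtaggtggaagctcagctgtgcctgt

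Most upstream components of the pathway overlapped between the groups, as did most genes tested (8960 of 11256). Of 31 listed components 28 were tested. Separated higher were 4 (14.3%, against 8.66% of all genes) and separated lower 2 (7.14%, against 11.7%). The median log2 fold change was 0.07. That median changed sign, at -0.11 without Bcat_exon3 3, -0.10 for genes with a mean of at least 5 RPKM and 0.21 without Bcat_control 2. Among receptors, Fzd4, which binds Norrin and Wnt7, measured 71.3, 118 and 89.2 RPKM against 123 and 90.1 RPKM, and the co-receptor Lrp6 measured 46.0, 50.8 and 43.8 RPKM against 33.4 and 41.0 RPKM. Lrp6 was separated by a small margin (0.33 ± 0.26, and 0.19 without Bcat_control 1). Gpr124 and Reck, the co-receptor pair for Wnt7 proteins, overlapped, with Gpr124 at 10.3, 14.0 and 17.3 RPKM against 16.5 and 15.3 RPKM and Reck at 55.5, 44.1 and 127 RPKM against 53.9 and 68.4 RPKM. Bcat_exon3 3 alone set the upper end for Reck. Inside the cell, the kinase gene Gsk3b was separated higher (65.3, 62.9 and 52.8 RPKM against 41.0 and 47.5 RPKM) and the Dishevelled gene Dvl3 lower (5.64, 6.60 and 3.72 RPKM against 8.79 and 11.0 RPKM). Fzd8 and Pygo2, below 4 RPKM in every library, were the other 2 separated higher, and Ctnnb1 was the other lower one.

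The gene with the lowest p was Serpine2, which encodes a secreted inhibitor of thrombin and plasminogen activators. It measured 53.6, 48.3 and 52.2 RPKM in Bcat_exon3 and 10.5 and 9.22 RPKM in Bcat_control (chromosome 1, 79794197 to 79861180, minus strand). The groups were far apart and each was tight, with SDs of 2.75 RPKM (n = 3) and 0.881 RPKM (n = 2). The log2 fold change was 2.27 ± 0.28 (limma adjusted p = 0.215), with 2.19 to 2.37 over the 16 alternatives and adjusted p from 0.119 to 1.00. Plat, which encodes tissue plasminogen activator, a target of that inhibitor, was also among the 12 higher genes of lowest p. Plat lies at chromosome 8, 22757727 to 22782844, on the plus strand. It measured 258, 237 and 264 RPKM against 129 and 108 RPKM (1.09 ± 0.21, limma adjusted p = 0.494), again with tight groups.

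Several of the other higher genes encode secreted or surface proteins. Wnt5a (chromosome 14, 28504750 to 28527448, plus strand), a ligand that mostly signals without beta-catenin, measured 26.4, 33.3 and 49.0 RPKM in Bcat_exon3 and 10.3 and 1.49 RPKM in Bcat_control. The controls differed from each other by several fold, so that its log2 fold change of 2.77 ± 0.60 became 1.67 without Bcat_control 2 and 3.86 without Bcat_control 1. Crim1, a membrane protein that binds BMPs, measured 54.4, 65.1 and 55.1 RPKM against 22.9 and 23.9 RPKM (1.27 ± 0.26).
Ackr1, a chemokine-binding receptor of venules, measured 4.60, 7.99 and 13.4 RPKM and was listed at 0 in both controls. Its span (chromosome 1, 173331886 to 173333750, minus strand) overlaps Cadm3 by 493 bases on the same strand, and Cadm3, with a mean of 2.15 RPKM, had a log2 fold change of 1.32. Crim1 overlaps Fez2 (mean 9.05 RPKM, log2 fold change -0.06) by 7381 bases on the opposite strand. Lcn2, a secreted protein that binds bacterial iron carriers and is induced in inflammation (chromosome 2, 32384633 to 32388252, minus strand), measured 13.1, 8.70 and 119 RPKM against 0.526 and 0 RPKM. Bcat_exon3 3 was far above the others, and the log2 fold change of 4.36 ± 0.96 was 3.24 without that library. Adh1, an alcohol and retinol dehydrogenase, measured 13.4, 7.72 and 12.4 RPKM against 1.13 and 0.304 RPKM (2.84 ± 0.55).
Nusap1 (a mitotic spindle protein), Mrpl16 (a mitochondrial ribosomal protein), Brms1l (a subunit of a histone deacetylase complex), Sp6 (a zinc-finger transcription factor) and Nkd1 complete the 12. Their log2 fold changes were 3.17, 2.63, 1.87, 3.04 and 2.33, and Nusap1 and Sp6 were below 1 RPKM in both controls.

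The 12 lower genes of lowest p included abundant endothelial transcripts. Pltp, the phospholipid transfer protein, measured 420, 486 and 397 RPKM in Bcat_exon3 and 942 and 989 RPKM in Bcat_control (log2 fold change -1.16 ± 0.21, limma adjusted p = 0.494). Ctsa, a lysosomal carboxypeptidase, measured 118, 127 and 116 RPKM against 255 and 268 RPKM (-1.11 ± 0.21). The annotated spans of these 2 genes overlap by 1515 bases on opposite strands of chromosome 2, and the sources used here do not say whether counting used strand, so reads in the shared stretch cannot be assigned.
Jam2 (chromosome 16, 84774123 to 84825928, plus strand), a junctional adhesion molecule of the list of tight-junction genes, measured 76.4, 91.3 and 81.7 RPKM against 181 and 181 RPKM (-1.12 ± 0.22). Rgcc (chromosome 14, 79288756 to 79301645, minus strand), a regulator of the cell cycle that marks capillary endothelium, measured 32.4, 47.4 and 39.2 RPKM against 202 and 113 RPKM (-1.92 ± 0.31, limma adjusted p = 0.381). Rtp4, an interferon-inducible protein that escorts receptors to the cell surface, measured 10.9, 8.28 and 14.1 RPKM against 42.3 and 46.9 RPKM (-1.94 ± 0.34). In each of these genes the groups were far apart compared with the spread inside them, apart from the controls of Rgcc. Their choice by separation and low p favours such a pattern.

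Tmem178, a membrane protein of the endoplasmic reticulum, was listed at 0 in all 3 Bcat_exon3 libraries against 11.3 and 13.8 RPKM. Mir7089, Mir701 and Mir6906 are microRNA loci of 58 to 109 bases that lie inside Cdc25a, Ttc28 and Spock2 on the same strand, so their reads cannot be told from those of the host transcripts. Spock2 itself averaged 1236 RPKM, and its groups overlapped (log2 fold change 0.43 ± 0.32). Snrnp27 (a spliceosome protein), Enoph1 (an enzyme of methionine salvage) and Llph (a nucleolar protein) had log2 fold changes of -2.30, -2.84 and -1.76. With a pseudocount of 0.1 in place of 1 the log2 fold change was -4.49 for Enoph1, and among the higher genes it was 5.08 for Nusap1, 5.64 for Sp6 and 6.58 for Lcn2.

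**Figure D3:**
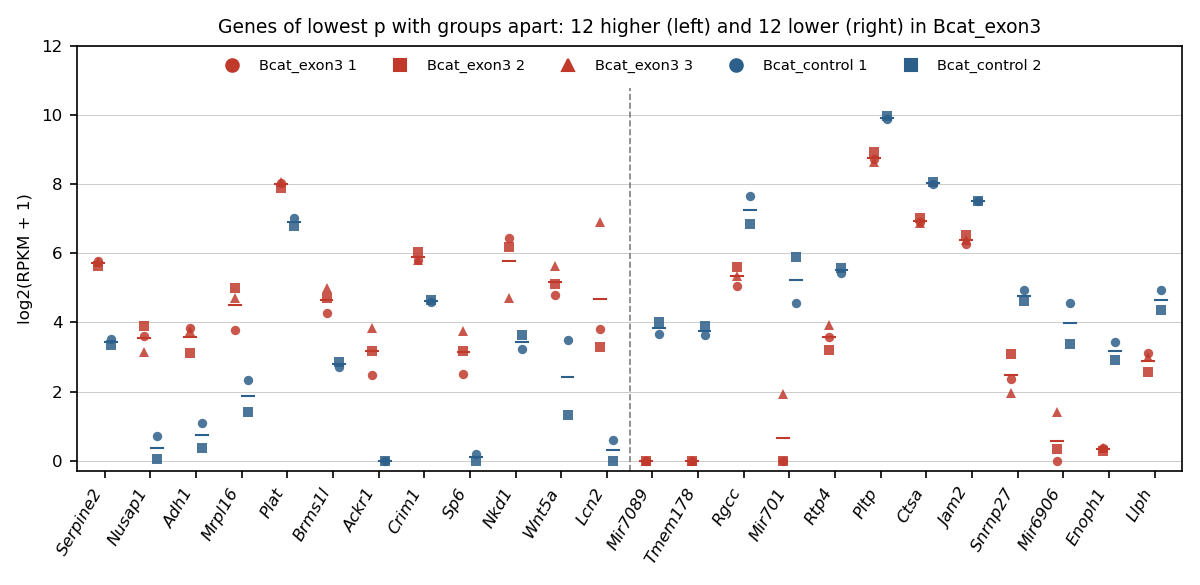
Log2(RPKM + 1) in each library of the 12 higher and 12 lower genes of lowest p among those with separated groups and at least 5 RPKM in the higher group (red: Bcat_exon3, n = 3; blue: Bcat_control, n = 2; lines are group means). The genes were selected for separation; Serpine2, Plat, Pltp, Ctsa and Jam2 combine tight groups with high levels, while Ackr1, Sp6, Tmem178 and Mir7089 are at or near 0 in 1 group.

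Most genes of the blood-brain barrier overlapped between the groups, as did 8960 of all 11256 genes tested. Of 14 tested tight-junction genes Cgnl1 was separated higher (7.14%, against 8.66% of all genes) and Jam2 and Lsr lower (14.3%, against 11.7%). The median log2 fold change was 0.06 (-0.0048 without Bcat_exon3 1). Cldn5, the main claudin of the barrier, measured 190, 155 and 204 RPKM in Bcat_exon3 and 120 and 205 RPKM in Bcat_control (0.21 ± 0.28). Ocln (117, 107 and 66.7 RPKM against 94.7 and 77.4 RPKM) and the scaffold Tjp1 (347, 399 and 404 RPKM against 377 and 331 RPKM) also overlapped. Lsr, the tricellular angulin, was lower by a small margin at 70.8, 69.8 and 91.0 RPKM against 91.9 and 103 RPKM. Cldn1 was at or near 0 in 2 Bcat_exon3 libraries and 1 control.

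Among 10 adherens-junction genes the median was -0.27 (all genes -0.06). None was separated higher (8.66% of all genes) and 4 were separated lower (40%, against 11.7% of all genes). They were Ctnnb1, the N-cadherin gene Cdh2, the p120-catenin gene Ctnnd1 (95.1, 87.7 and 87.1 RPKM against 119 and 100 RPKM) and the afadin gene Mllt4. Pan-endothelial markers had a median of -0.20 (-0.10 without Bcat_control 2) with 2 of 17 separated lower (11.8%). Ribosomal protein genes had a median of -0.24 (-0.16 without Bcat_control 2) with 7 of 20 separated lower (35%). The endothelial cadherin gene Cdh5, whose promoter drives the recombinase, overlapped at 206, 122 and 218 RPKM against 204 and 251 RPKM. Pecam1, which encodes the CD31 used for sorting, overlapped at 187, 198 and 297 RPKM against 289 and 245 RPKM.

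Of 34 tested barrier transporters and receptors 3 were separated higher (8.82%) and 4 lower (11.8%), near the shares of all genes (8.66% and 11.7%). The median was 0.08 (-0.06 without Bcat_exon3 2). The glucose transporter gene Slc2a1 measured 1205, 2185 and 1900.2 RPKM in Bcat_exon3 and 2267 and 1392 RPKM in Bcat_control, a spread within groups that exceeded the difference of means (-0.05 ± 0.33). The transferrin receptor gene Tfrc was separated higher at 254, 390 and 297 RPKM against 150 and 247 RPKM (0.68 ± 0.29, but 0.32 without Bcat_control 1 and 1.04 without Bcat_control 2), as was the lactate transporter gene Slc16a1 at 145, 83.4 and 96.3 RPKM against 62.1 and 73.2 RPKM. The efflux pump gene Abcb1a was higher by little, at 457, 439 and 468 RPKM against 406 and 420 RPKM.
The thiamine transporter gene Slc19a3 was separated lower at 76.1, 108 and 87.8 RPKM against 133 and 116 RPKM, and the efflux transporter gene Abcc4 at 71.6, 58.8 and 104 RPKM against 120 and 109 RPKM. Bsg, the chaperone of lactate transporters, was separated lower at 1124, 1271 and 948 RPKM against 1304 and 1539 RPKM. Mfsd2a, the lipid transporter that restrains transcytosis, overlapped at 132, 188 and 132 RPKM against 127 and 141 RPKM. Plvap, a protein of fenestrated and leaky vessels, was at 2.44, 0 and 0.890 RPKM against 4.93 and 0.471 RPKM. Of 12 vesicle and permeability genes only the caveolar gene Sdpr was separated, lower in Bcat_exon3 (8.33%, against 11.7% of all genes). It measured 91.8, 70.4 and 93.3 RPKM against 162 and 121 RPKM.

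Some markers of venous endothelium were higher in Bcat_exon3 libraries. Of 10 tested venous markers 9 had a positive log2 fold change (5158 of 11256 among all genes) and 6 overlapped. The 4 separated higher (40%, against 8.66% of all genes) were Ackr1, Lcn2, Vcam1 and Nr2f2. The list median was 0.85 (0.66 without Bcat_exon3 3, 1.35 without Bcat_exon3 1). The summed RPKM of the listed venous markers was 206 to 501 in Bcat_exon3 and 150 to 156 in Bcat_control. In Bcat_exon3 1, 2 and 3 it was 206, 328 and 501 RPKM, and the summed mural markers were 35.5, 73.2 and 114 RPKM in the same libraries, whose part in the venous values was not tested. Vcam1, an adhesion molecule for leukocytes, measured 35.8, 61.6 and 77.6 RPKM against 7.14 and 21.9 RPKM (2.05 ± 0.48, limma adjusted p = 0.671), and its log2 fold change was 1.31 without Bcat_control 1 and 2.80 without Bcat_control 2. The venous transcription factor gene Nr2f2 was separated only just (log2 fold change 0.83, and 0.53 without Bcat_exon3 3), at 5.34, 2.16 and 7.29 RPKM against 2.11 and 2.09 RPKM. Vwf, which encodes von Willebrand factor, was at 137 RPKM in Bcat_exon3 3 and overlapped otherwise (21.2 and 48.6 RPKM against 28.7 and 30.5 RPKM), and Ephb4, a receptor of venous identity, was not higher (-0.33 ± 0.42, and -0.0151 without Bcat_exon3 2).

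Arterial markers did not show one direction. Of 14 tested, none was separated higher (8.66% of all genes) and 3 were separated lower (21.4%, against 11.7%). The median was -0.08, and it was 0.08 without Bcat_control 2 and -0.44 without Bcat_control 1. Gkn3, a secreted arterial protein, measured 2.15, 14.4 and 4.26 RPKM in Bcat_exon3 and 28.0 and 50.2 RPKM in Bcat_control (-2.60 ± 0.64, limma adjusted p = 0.710). Alpl, alkaline phosphatase, measured 15.2, 17.5 and 10.9 RPKM against 41.1 and 36.7 RPKM (-1.39 ± 0.33), and Tm4sf1, a tetraspanin-like protein, measured 106, 97.1 and 124 RPKM against 195 and 202 RPKM (-0.86 ± 0.22).
Other arterial genes such as Efnb2, Hey1, Bmx and Sema3g overlapped. Of 10 capillary markers Tfrc, Slc16a1 and Ivns1abp were separated higher (30%, against 8.66% of all genes). Rgcc and Cxcl12 were separated lower (20%, against 11.7%). In bulk RNA, fewer cells of a vessel type and less RNA per cell cannot be told apart.

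**Figure D4:**
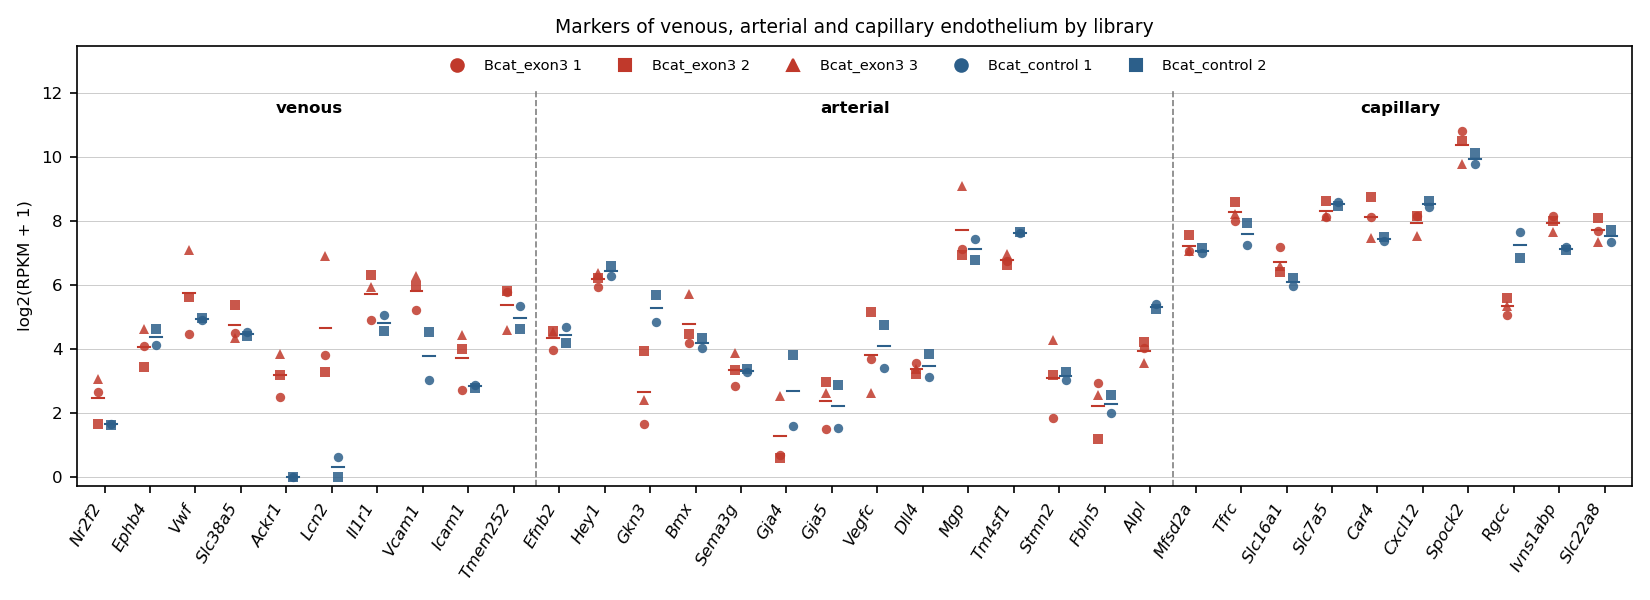
Log2(RPKM + 1) of all tested markers of venous, arterial and capillary endothelium in each library (red: Bcat_exon3, n = 3; blue: Bcat_control, n = 2; lines are group means). Ackr1, Lcn2 and Vcam1 lie higher in all 3 Bcat_exon3 libraries and Gkn3, Tm4sf1, Alpl and Rgcc lower, while most other markers overlap.

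The venous list shares Vcam1, Ackr1 and Icam1 with the list of leukocyte adhesion molecules and Lcn2 and Il1r1 with the inflammation list. Of 9 adhesion genes 3 were separated higher (33.3%, against 8.66% of all genes) and none lower. The third was Alcam (15.9, 6.85 and 13.6 RPKM against 3.87 and 3.77 RPKM). Icam1 was higher in Bcat_exon3 2 and 3 (14.9 and 20.6 RPKM) but not in Bcat_exon3 1 (5.58 RPKM against 6.34 and 5.90 RPKM).
Of 17 inflammation genes 7 were separated higher (41.2%, against 8.66% of all genes) and 2 lower (11.8%, against 11.7%). The median was 0.48 (0.76 for genes with a mean of at least 5 RPKM). Stat3, a transcription factor activated by cytokines, measured 45.5, 48.7 and 47.8 RPKM against 24.5 and 25.6 RPKM (0.89 ± 0.26, limma adjusted p = 0.868), and its feedback inhibitor Socs3 measured 5.82, 9.25 and 7.16 RPKM against 2.27 and 3.94 RPKM. The chemokine gene Cxcl1 was separated, but mostly through Bcat_exon3 3 (3.94, 6.20 and 39.7 RPKM against 2.70 and 3.72 RPKM). Cxcl12, the chemokine of capillary and arterial endothelium, was lower at 287, 286 and 183 RPKM against 346 and 394 RPKM. Il6, Ccl2, Ccl7, Csf3, Il1b and Tnf did not reach the filter.

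Among interferon-response genes more were lower than higher. Of 22 members, all tested, 20 had a negative log2 fold change (6098 of 11256 among all genes). Separated lower were 8 (36.4%, against 11.7% of all genes), separated higher 1 (4.55%, against 8.66%), and 13 overlapped. The median was -0.43, and it was -0.71 without Bcat_control 1 and -0.28 without Bcat_exon3 3. Ifit3 measured 13.3, 19.8 and 16.5 RPKM in Bcat_exon3 and 41.7 and 38.4 RPKM in Bcat_control (-1.25 ± 0.31, limma adjusted p = 0.712). Ifit1 measured 35.5, 26.0 and 19.1 RPKM against 37.5 and 60.8 RPKM, and Oasl2 measured 60.5, 42.9 and 27.0 RPKM against 82.6 and 75.0 RPKM. Both genes of antiviral proteins were lowest in Bcat_exon3 3. Tap1, a peptide transporter for antigen presentation, measured 3.47, 4.28 and 4.30 RPKM against 10.3 and 10.8 RPKM (-1.21 ± 0.46). The separated higher member, Mx1, was above 1 RPKM in Bcat_exon3 3 alone.

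Genes of the vessel wall matrix split in both directions. Of 15 basement-membrane genes 6 were separated higher (40%, against 8.66% of all genes) and 1 lower (6.67%, against 11.7%). The list median was 0.0043, and 8 of the 15 had a positive log2 fold change. Fn1, fibronectin, measured 465, 569 and 526 RPKM in Bcat_exon3 and 309 and 257 RPKM in Bcat_control (0.88 ± 0.22, limma adjusted p = 0.710). The collagen IV chain gene Col4a2 was separated higher (55.4, 61.7 and 60.5 RPKM against 38.8 and 37.7 RPKM), while its partner chain Col4a1 was not (44.4, 32.0 and 39.0 RPKM against 39.3 and 36.8 RPKM). Col18a1, the source of endostatin, measured 4.91, 5.93 and 5.82 RPKM against 1.92 and 1.16 RPKM. Lama5, Lamb2 and Agrn were the other higher members, and Sparcl1, a secreted matricellular protein, was lower at 242, 265 and 280 RPKM against 386 and 461 RPKM (-0.68 ± 0.21).
All 7 tested proteases and protease inhibitors had a positive log2 fold change (5158 of 11256 among all genes). Plat was the separated one (14.3%, against 8.66% of all genes separated higher). Mmp14, at 1.72, 0 and 3.32 RPKM against 0 and 0.522 RPKM, reached the filter only through Bcat_exon3, which favoured its sign. The median of the 7 was 0.57, and 0.32 without Bcat_control 2. Of 14 listed members 7 did not reach the filter, Mmp2, Mmp3, Mmp9 and Adamts4 among them.

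For the counts that follow, 8.66% of all genes were separated higher, 11.7% lower, and 6098 of 11256 had a negative log2 fold change. Of 11 Notch genes 2 were separated lower (18.2%), Notch1 and Nrarp, and 10 had a negative log2 fold change. Nrarp, a feedback regulator of Notch and Wnt signalling, measured 0.368, 0.222 and 1.81 RPKM in Bcat_exon3 and 6.45 and 6.44 RPKM in Bcat_control (-2.15 ± 0.66, limma adjusted p = 0.872, and -3.31 with a pseudocount of 0.1). Of 19 angiogenesis genes only Angpt2 (5.26%), the context-dependent Tie2 ligand, was separated, higher in Bcat_exon3 (16.7, 9.88 and 7.83 RPKM against 5.37 and 2.74 RPKM). Among 18 TGF-beta and BMP genes the target gene Id2 (5.99, 10.8 and 5.46 RPKM against 24.0 and 12.8 RPKM) and the receptor gene Acvrl1 were separated lower (11.1%). Of 18 proliferation genes 13 did not reach the filter, Mki67 and Top2a among them. Of the 5 tested, the cyclin gene Ccna2 was separated higher, the replication gene Mcm3 and the thymidylate synthase gene Tyms were separated lower, and 2 overlapped. None of 13 guidance genes was separated.

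Housekeeping, stress and transcription factor lists held separated genes in both directions or lower ones only. Over all genes 8.66% were separated higher and 11.7% lower, the background for these counts. Of 26 endothelial transcription factor genes 2 were higher (Gata2 and Nr2f2) and 1 lower (Klf4). Of 20 respiratory chain genes 4 were higher and 3 lower, and of 18 cholesterol synthesis genes 3 were higher and 2 lower. Of 17 hypoxia and glycolysis genes 1 was higher and 1 lower. No immediate early gene of 24 and no unfolded protein response gene of 14 was separated higher, and 2 of each list were separated lower.

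**Figure D5:**
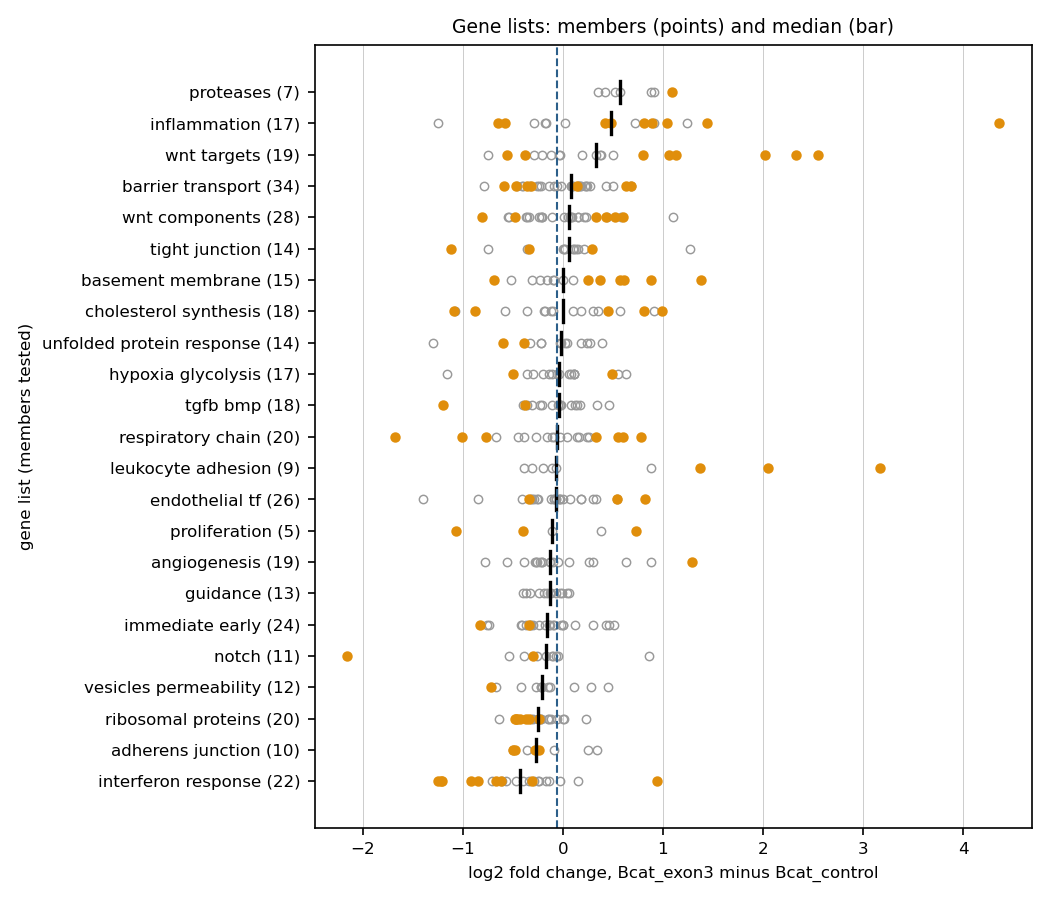
Log2 fold change, Bcat_exon3 minus Bcat_control, of the tested members of 23 gene lists (filled: groups separated; open: groups overlap; black bar: list median; dashed line: median of all genes, -0.06), with the number tested in brackets. Medians run from -0.43 for interferon response to 0.57 for proteases; no member passed the adjusted threshold.

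RNA of other cells was present at levels that differed between libraries, and its part in the differences above was not tested. Hemoglobin and other red-cell transcripts were abundant. The summed RPKM of 13 red-cell and platelet genes was 25997 to 51457 in Bcat_exon3 and 23383 to 24816 in Bcat_control. Of 8 tested 6 were separated higher (75%, against 8.66% of all genes), and all 8 were positive (median 0.80, and 0.34 with quantile normalization). Hba-a1 measured 2622, 2501 and 4481 RPKM against 1652 and 1729 RPKM, and Alas2, the erythroid enzyme of heme synthesis, measured 78.8, 71.9 and 124 RPKM against 32.1 and 42.1 RPKM. The globin genes have near-identical copies, so their reads cannot be assigned between them. The platelet genes Ppbp, Pf4, Itga2b and Gp9 were below the filter.
Summed mural markers were 35.5 to 114 RPKM in Bcat_exon3 and 36.7 to 37.3 in Bcat_control, with Pdgfrb at most 5.28 RPKM. The smooth-muscle genes Acta2 and Myh11 were highest in Bcat_exon3 3, at 34.1 and 21.0 RPKM, the library that was also highest for Lcn2, Vwf and Cxcl1. Summed astrocyte markers were 38.1 to 44.2 RPKM against 19.8 to 29.5, of which Gja1, also an endothelial gene, made the most. Leukocyte markers summed to 1.07 to 7.17 RPKM against 0.292 to 0.428, with 4 of the 11 found in the table at 0 in all 5 libraries, and none reached the filter. Microglial and macrophage markers (11.1 to 29.7 RPKM against 16.7 to 17.4), neuronal markers (11.5 to 27.1 against 10.7 to 14.0), oligodendrocyte markers (4.77 to 11.8 against 4.77 to 14.1) and fibroblast markers (0.846 to 1.21 against 1.28 to 2.09) were low. The choroid plexus gene Ttr ranged from 17.5 to 1017 RPKM in Bcat_exon3 and was 1181 and 67.9 RPKM in the controls, so it differed widely between libraries of 1 group.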

How the data were processed

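RNA was measured in sorted brain endothelial cells, in 3 Bcat_exon3 and 2 Bcat_control libraries. The authors deposited RPKM values, and per the submitters' processing notes edgeR and the mm10 genome were used. The aligner, annotation, strand setting and gene lengths used are details not given in the sources used here. Another 16 libraries, made with another kit per the labels' protocols, were not compared. The names of 8 more columns match no label, and these were left out. Of 24260 rows, 54 that shared 23 names were left out, 27 named as calendar dates were kept but never named, and 8234 were 0 in all 5 libraries.

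Values were taken as log2(RPKM + 1) for genes with a mean of at least 1 RPKM and compared with limma 3.58.1 in R 4.3.3 (eBayes with a mean-variance trend, two-sided, Benjamini-Hochberg adjustment over 11256 genes, threshold 0.05). Depth was estimated as the number of reads at which low values (under 5 RPKM) fell on whole reads, given GENCODE and RefSeq transcript lengths. A second estimate took relative depth from ratios between libraries but its scale from the same lengths. It differed by under 0.1%, which checks relative depth only. Steps at even read numbers held more values than those at odd ones (299 at 2 reads, 195 at 1), so the absolute depth remains unchecked. No count test was run, since the authors' lengths are not known. No pair of columns was identical.

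Named genes were, in each direction, the 12 of largest change past the threshold with separated groups and at least 5 RPKM in the higher group, filled up by lowest p since none passed. A fixed set of 26 and up to 4 members per list with the lowest p were added, 132 genes in all, of which those that carry a comparison are given; some list members counted in the list totals are not reported here. The 23 gene lists are those in the plot of list medians. Marker lists covered endothelial, arterial, venous, capillary, mural, astrocyte, neuron, oligodendrocyte, microglia and macrophage, leukocyte, red-cell and platelet, fibroblast, choroid plexus and fenestrated endothelial genes, the last with 1 of 6 tested members separated, Nkd1. Members and lists were chosen with earlier results of these data known, and lists are described by counts and medians, with no list test. Coordinates are from GENCODE M21 and windows before gene starts from RefSeq, both on GRCm38. The fit was checked on simulated data with 200 changed genes.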

Additional observations from a re-analysis of the deposited data

How the results depend on the processing

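The count of genes past the adjusted threshold was 0 under all 16 alternatives, the 5 that each leave out 1 library included (range 0 to 0), and the lowest adjusted p in limma was 0.119, for Serpine2 with library weights. The share of genes at an unadjusted p under 0.05 ranged from 2.89% to 6.33% when 1 library was left out. It was 3.42% without Bcat_control 1 and 2.89% without Bcat_control 2, where the single control left was assumed to vary like the other group. It ranged from 4.77% (no filter on low values) to 6.53% (library weights) under the other settings. Replicate numbers 1 and 2 occur in both groups. Deviations of same-numbered samples from their group means correlated across genes with r of -0.0075 and 0.0063. With 2 controls these deviations mirror each other, so this check cannot exclude a pairing or a shared batch. The fit with a replicate block gave 0 genes past the threshold, 616 at an unadjusted p under 0.05 (5.47%) and a lowest adjusted p of 0.859; Bcat_exon3 3, alone with its number, adds nothing to that contrast.

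Of 121 genes followed through the alternatives 106 kept the sign of their log2 fold change. The other 15 changed sign at least once, and the cause was not tested. With 1 library left out, the log2 fold change ranged from -0.31 to 1.06 for Notum, -0.027 to 0.41 for Tcf7, -0.43 to 0.010 for Fzd4, -0.38 to 0.17 for Foxf2, -0.44 to 0.23 for Foxq1, -0.11 to 0.78 for Ppard, -0.29 to 0.46 for Reck, -0.17 to 0.59 for Cldn5, -0.0204 to 0.38 for Ocln, -0.41 to 0.30 for Slc2a1, -0.021 to 0.23 for Mfsd2a, -0.10 to 0.13 for Col4a1, -0.32 to 0.18 for Efnb2, -0.22 to 0.29 for Sema3g and -2.96 to 1.14 for Ttr. With median-of-ratios scaling it was 0.040 for Foxf2 and 0.017 for Slc2a1. With the GC trend removed it was 0.0013 for Foxf2, with quantile normalization 0.0113 for Foxf2, and with library weights 0.013 for Foxf2 and -0.0162 for Col4a1. With the replicate block it was 0.17 for Foxf2, -0.29 for Reck, -0.0117 for Col4a1 and -0.22 for Sema3g. List medians moved by more than 1 SD between libraries in 40 of 464 recomputed values. The alternatives for marker lists and for the inhibitors were chosen after seeing the data. Genes at a few RPKM are limited by depth, more so in the controls.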
